A study of Homo sapiens with 4 samples.

Results

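BCL11A was followed here along its whole length by DNA methylation at its CpGs, the places where a C is followed by a G. All CpGs of an interval of chromosome 2 (hg38) were taken, by their position and not by their values. The interval holds the gene, its promoter CpG island and the enhancer in its intron 2. The first and last of these CpGs are at chr2:60450006-60555875. The interval has 1557 CpGs in the reference, of which 1415 were listed in at least 1 of the 4 libraries and 1156 in all 4, out of 23269121 CpGs listed in all 4 libraries on chromosomes 1 to 22 and X. These 1156 shared CpGs carry the values below unless stated otherwise. BCL11A (ENSG00000119866.22) is on the minus strand, so its start lies at the high coordinate. Its MANE Select transcript, ENST00000642384.2, has 4 exons and spans chr2:60457194-60553654. Distances are counted downstream from the start of that transcript.

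BCL11A is a zinc finger repressor that holds the gamma-globin genes silent in adult erythroid cells, and lowering it raises fetal hemoglobin. Its expression in the erythroid lineage depends on an enhancer in intron 2 made of sites named by their distance from the start, 55, 58 and 62 kb, which bind the erythroid factors GATA1 and TAL1. Unmethylated stretches in an otherwise methylated gene usually mark promoters and enhancers, while the bodies of transcribed genes are as a rule methylated. DNMT1 is the enzyme that copies CpG methylation onto new DNA strands, and EED belongs to the Polycomb machinery that puts a silencing methyl mark on histone H3.

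The cells were HUDEP-2, an immortalised human erythroid precursor line that makes mainly adult hemoglobin, and there were 4 whole-genome bisulfite libraries, 1 per group. The protocol, given alike for all 4, has an expansion of 3 to 4 days. The non-differentiated group was untreated. The other groups went on through growth in differentiation medium for 4 days and maturation for 2 days, with compounds dissolved in 0.1% DMSO present from expansion on: DMSO alone, a DNMT1 inhibitor or an EED inhibitor. Per the labels both inhibitors raised fetal hemoglobin; compound names and doses are not given there, and no genetic change is named in any group. DMSO against non-differentiated cells is called differentiation below, but these libraries also differ by the DMSO and the added days of culture, which cannot be told apart from it. Each inhibitor was compared with the same DMSO library, so the inhibitor comparisons share their control. With 1 library per group, tests compare the reads of 2 libraries and not conditions, and intervals are 95% and cover counting error only. Neighbouring CpGs can lie on the same read, which makes reads less independent than the tests assume. Mean coverage of the shared BCL11A CpGs was 22.9 to 25.6 reads, with a range of 10 to 63 over all listed CpGs.

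The stretches of BCL11A on which the results turn are shown first, all on the plus strand of hg38, with every CpG in capitals. The first surrounds the centre of the dip in methylation at the 55 kb site, chr2:60498132-60498431. The next pair comes from the windows that kept the smallest and the largest share of methylation with the DNMT1 inhibitor. Only windows at 50% or more in non-differentiated cells were ranked for this. The pair is chr2:60509301-60509600 in intron 2 and chr2:60462004-60462303 in the coding part of exon 4. The last is the GC-rich stretch of the promoter between annotated first exons, chr2:60553659-60553877.
55 kb site: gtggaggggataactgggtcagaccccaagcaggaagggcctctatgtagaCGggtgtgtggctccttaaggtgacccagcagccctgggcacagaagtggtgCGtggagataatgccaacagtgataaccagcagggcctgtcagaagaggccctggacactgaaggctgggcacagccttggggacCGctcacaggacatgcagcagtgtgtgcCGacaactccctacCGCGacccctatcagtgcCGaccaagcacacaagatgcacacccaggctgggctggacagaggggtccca
smallest share kept: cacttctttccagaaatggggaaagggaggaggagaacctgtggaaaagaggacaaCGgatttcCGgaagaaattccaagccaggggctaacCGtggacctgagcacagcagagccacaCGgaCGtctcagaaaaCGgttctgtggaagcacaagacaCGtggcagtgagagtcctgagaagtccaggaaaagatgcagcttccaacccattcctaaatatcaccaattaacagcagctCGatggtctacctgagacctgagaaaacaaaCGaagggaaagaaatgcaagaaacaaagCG
largest share kept: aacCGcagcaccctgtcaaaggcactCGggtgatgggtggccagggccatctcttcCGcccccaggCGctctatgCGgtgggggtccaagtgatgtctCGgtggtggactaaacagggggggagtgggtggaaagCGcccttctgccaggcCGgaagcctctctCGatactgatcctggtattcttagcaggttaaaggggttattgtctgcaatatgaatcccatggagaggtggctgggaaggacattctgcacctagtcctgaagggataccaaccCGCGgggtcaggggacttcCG
promoter: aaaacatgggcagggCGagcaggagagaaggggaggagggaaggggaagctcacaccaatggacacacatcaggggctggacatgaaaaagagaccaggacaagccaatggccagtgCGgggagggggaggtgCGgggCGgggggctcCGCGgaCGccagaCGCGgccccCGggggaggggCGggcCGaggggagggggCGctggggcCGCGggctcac
The 55 kb stretch holds 7 CpGs in 300 bases, the stretches of smallest and largest share kept 10 and 12, and the promoter stretch 15 in 219 bases.

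Motifs were searched by their letters on both strands of these stretches: AGATAA with its variant AGATAG, and TGATAA with its variant TGATAG, the words bound by GATA factors. The composite E-box and GATA motif was searched too, which puts CTG and 9 free bases before AGATAA or before TGATAA and so overlaps those words. The others were CACGTG, then TGACCA, and CCACCC, a word bound by Krüppel-like factors. The 55 kb stretch holds AGATAA once, TGATAA once and TGATAG once. The stretch of smallest share kept holds CACGTG and no GATA word, and that of largest share kept holds CCACCC at 2 places. The composite motif, AGATAG and TGACCA were found in none of the 4 stretches. Of 801801 stretches of 300 bases on chromosome 2, 50.3% hold at least 1 of the GATA words, 21.7% AGATAA, 13.0% AGATAG, 18.6% TGATAA, 12.5% TGATAG, 14.8% CCACCC, 2.60% CACGTG, 12.9% TGACCA, and 0.535% and 0.284% the composite motif with AGATAA and with TGATAA, so a match describes the letters and does not show a bound site.

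Apart from a few short dips, BCL11A was highly methylated from its end to about 5 kb after its start in 3 of the 4 libraries. In the fourth, that of the DNMT1 inhibitor, no 1 kb window was above 48.4%. Over all shared CpGs of the interval, the level (methylated reads of all reads) was 80.1% (79.6 to 80.5) in non-differentiated cells, 78.7% (78.2 to 79.1) with DMSO, 21.0% (20.6 to 21.5) with the DNMT1 inhibitor and 77.9% (77.5 to 78.4) with the EED inhibitor. The library of the DNMT1 inhibitor therefore stood apart from the other 3, which lay within a few points of each other. Over all shared CpGs of the genome the levels were 61.7%, 60.3%, 16.8% and 59.3% in the same order. The flanks, an equal length of DNA on each side of the interval, were less methylated than BCL11A. On the side of the transcript end the levels were 62.4%, 62.3%, 15.3% and 61.1% over 1057 CpGs. On the side of the start they were 54.0%, 52.7%, 11.8% and 51.9% over 992 CpGs.

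Most BCL11A CpGs were either near fully methylated or near unmethylated before treatment. In non-differentiated cells 864 of 1156 CpGs were at 80% or more and 200 at 20% or less, which left 92 between. The DMSO library held 865 and 196 such CpGs, and the EED inhibitor library 853 and 199. With the DNMT1 inhibitor 3 CpGs were at 80% or more, 628 at 20% or less and 525 between. All 864 CpGs that began at 80% or more were lower with the DNMT1 inhibitor than with DMSO. Their median became 24.0%, 81 of them were still at 50% or more, and 14 had no methylated read.

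In windows of 1 kb the gene read as a plateau with a few gaps. The 3 shared CpGs needed were present in 105 windows, all but 1, with a median of 10 CpGs and a range of 3 to 47. In non-differentiated cells 81 windows were at 80% or more, 12 were under 50% and 8 of these under 5%. The share of windows under 50% was 11.4% in BCL11A and 39.5% over the genome. The window nearest to that threshold from below was chr2:60531000-60531999 at 47.4%, and from above chr2:60545000-60545999 at 58.8%.

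**Figure D1:**
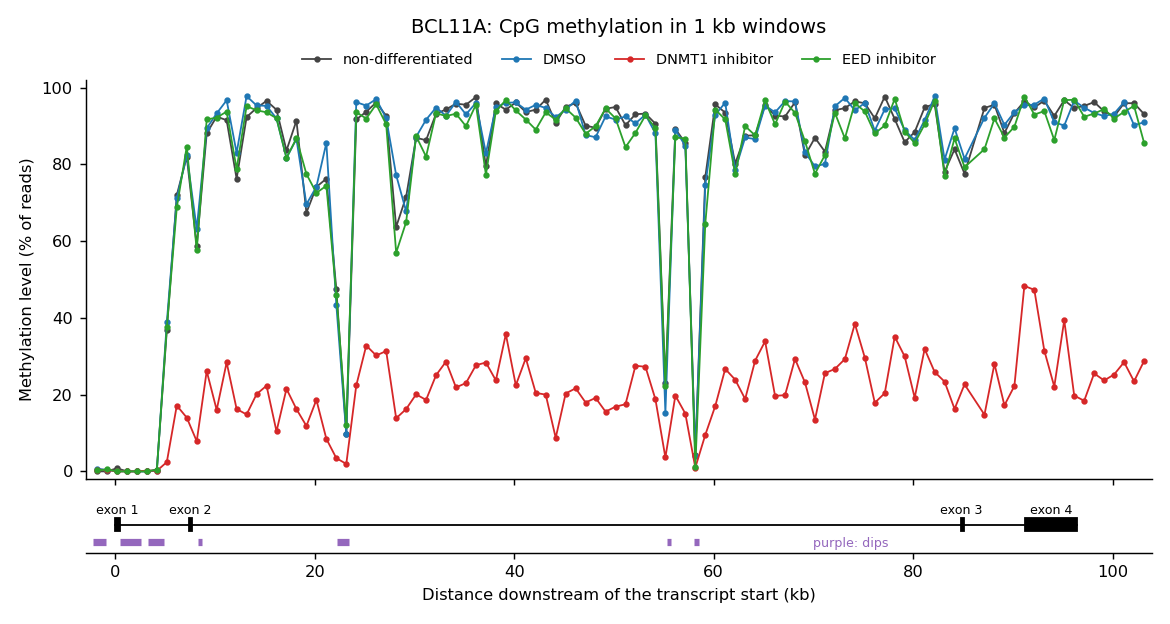
Methylation level (% of reads) in 1 kb windows against the distance downstream of the BCL11A transcript start (kb), 1 line per library; below, exons of the transcript as black boxes and dips as purple bars. Lines of 3 libraries lie on each other, mostly at 80 to 100%, and fall together at the dips, and the DNMT1 inhibitor line lies mostly between 8 and 48% and falls to near 0 at the same places.

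The gene held 7 dips, defined as at least 3 neighbouring shared CpGs under 50% in non-differentiated cells with no more than 500 bp between neighbours. The number was 10 when dips were chosen in the DMSO library and 3 at 20 or more reads. The 12 low windows overlapped 6 of them, and the other one, at chr2:60545334-60545407, lay in the window at 58.8%. The largest low region was the promoter valley, made of 3 of the dips and running on past the interval. Inside the interval it starts at position 60548761 and runs from intron 1 across exon 1 and the promoter to the last CpG. Its level was 0.225%, 0.201%, 0.196% and 0.201% in the non-differentiated, the DMSO, the DNMT1 inhibitor and the EED inhibitor library over 144 shared CpGs, so all 4 libraries were alike near 0. Its depth was thin: 144 of its 448 reference CpGs were shared, against 1012 of 1109 in the rest of the interval. Without the valley the rest of the interval stood at 87.4%, 86.2%, 23.01% and 85.1%.

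At the promoter proper, from 1000 bp before to 500 bp after the start (chr2:60553154-60554654), only 6 of 118 reference CpGs were listed in all 4 libraries. Taking every CpG listed in each library gave 38, 52, 31 and 77 CpGs, with the libraries in the order just given. These held 0 methylated reads of 543, 4 of 736, 1 of 412 and 2 of 978. The upper ends of their Wilson intervals were 0.702%, 1.39%, 1.36% and 0.743%. By the limit of 3 counts, the 0 of 543 allows a level of up to 0.552%. The promoter CpGs listed were thus near unmethylated in each library, and differences within these intervals were not detectable at this depth. None of the 15 CpGs of the promoter sequence printed above was shared by all 4 libraries.

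The 58 kb site held a dip of 586 bp inside intron 2. Its 8 CpGs were at 4.32% (1.99 to 9.10), 4.09% (2.17 to 7.59), 0.971% (0.267 to 3.47) and 1.099% (0.302 to 3.92) in the same order. All 4 were low and their intervals overlap.

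The 55 kb site held a shorter dip at chr2:60498183-60498381, within the annotated lncRNA ENSG00000233953 (chr2:60495686-60499964, plus strand). Its 7 CpGs, those in capitals in the 55 kb stretch, were at 9.72% (5.88 to 15.7) in non-differentiated cells, 1.84% (0.628 to 5.27) with DMSO, 2.61% (1.02 to 6.53) with the DNMT1 inhibitor and 7.56% (4.03 to 13.8) with the EED inhibitor. These rest on 119 to 163 reads per library, or 14, 3, 4 and 9 methylated reads. The non-differentiated and DMSO intervals just fail to overlap. The dip was chosen on the non-differentiated library, it has no test of its own, and the 1 kb window around it (chr2:60498000-60498999) gave 0.616 as its adjusted p for DMSO against non-differentiated cells (Fisher's exact test).

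The 62 kb site had no dip by this rule, because its low CpGs in non-differentiated cells were fewer than 3. This was close: the CpG at position 60491073 was at 54.1% (38.4 to 69.0) in non-differentiated cells and at 43.6% with DMSO. When dips were chosen in the DMSO library, the 62 kb site did hold one. The CpG at position 60491212 had no methylated read in any library, in 28 to 43 reads, and its neighbour at 60491142 was at 25.8%, 26.5%, 2.33% and 12.1%. The CpG on the other side, at 60491246, was at 66.7% in non-differentiated cells and 62.5% with DMSO, and had no methylated read in 36 with the DNMT1 inhibitor. In non-differentiated cells the gap at 62 kb therefore held fewer low CpGs than those at 58 and 55 kb. Its width was not determined, because shared CpGs are sparse at its edges. Away from the start, the next shared CpG after 60491073 was at position 60490468, at 84.2% in non-differentiated cells. Toward the start, the CpG at position 60491390 was back at 83.3% or more in the 3 libraries other than that of the DNMT1 inhibitor.

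A longer dip without an enhancer name lay 22.2 to 23.4 kb from the start, at chr2:60530271-60531445 in intron 2. It spans 1175 bp, holds 28 shared CpGs and overlaps at its far end a computed CpG island (chr2:60530220-60530586). Its levels were 4.47% (2.97 to 6.68), 5.22% (3.81 to 7.11), 0.163% (0.0288 to 0.918) and 7.23% (5.57 to 9.34), and in the DNMT1 inhibitor library 1 read of 613 was methylated. The low residual methylation of this dip was thus present in 3 libraries and nearly gone in the fourth, with an interval that does not reach the others. A short dip of 3 CpGs lay 8.25 to 8.32 kb from the start at chr2:60545334-60545407, near exon 2. It was shallower, at 21.4%, 24.0%, 1.39% and 15.3%.

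**Figure D2:**
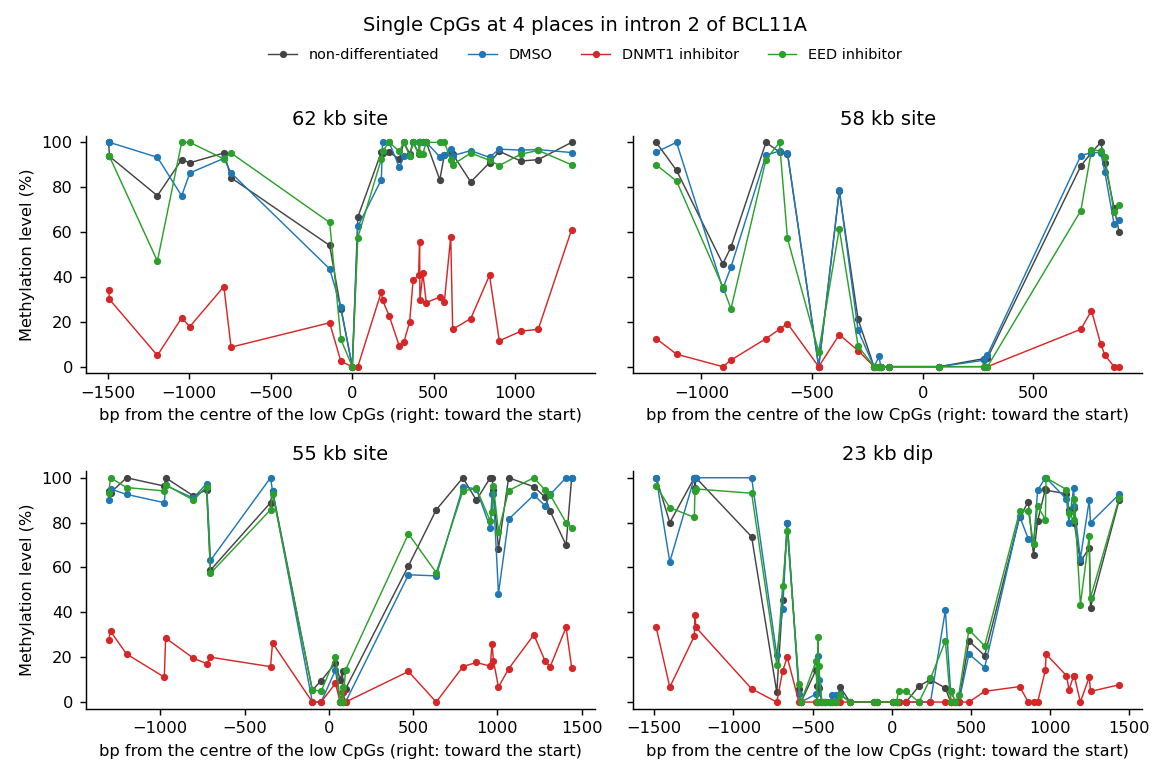
Methylation level (%) of single shared CpGs within 1500 bp of the low CpGs at the 62, 58 and 55 kb sites and the dip near 23 kb, against the distance in bp, where right is toward the transcript start; 1 line per library. The low CpGs are mostly near 0 in all 4 libraries, and on either side most CpGs of 3 libraries rise to about 80 to 100% while the DNMT1 inhibitor library mostly stays under 40%.

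Loss with the DNMT1 inhibitor reached nearly every methylated window of BCL11A. By Fisher's exact test, 95 of 105 windows (90.5%) were called lower than DMSO, against 81.3% of all windows of the genome; a call needed a Benjamini-Hochberg adjusted p under 0.01 over all windows of the genome and a difference of at least 25 points. No window was called higher, against 0% of all windows. The 95 were all 93 windows that began at 50% or more plus the edges of dips at chr2:60531000-60531999 (43.4% with DMSO, 3.45% with the inhibitor) and chr2:60548000-60548999 (38.8% and 2.43%). The median difference over BCL11A windows was -67.2 points and over all windows -42.4 points, but fewer of the genome's windows began high. Over windows at 80% or more in non-differentiated cells it was -68.5 points in BCL11A (81 windows) and -62.9 in the genome (602049 windows). Of single CpGs 887 of 1156 (76.7%) were called lower, against 63.6% of all CpGs, and none higher, against 4.3e-06%.

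Because a window can lose no more than it has, the loss was also expressed as the share kept, the DNMT1 inhibitor level as a percentage of the DMSO level. Over the whole interval BCL11A kept 26.8% (26.2 to 27.4), and all shared CpGs of the genome kept 27.9%. The flanks kept 24.6% (23.9 to 25.3) on the end side and 22.4% (21.7 to 23.1) on the start side. In the 93 windows the share kept ran from 9.46 to 50.7% with a median of 24.1%, and its middle 50% of windows from 20.3 to 30.1%. Over 1470803 windows of the genome at 50% or more in non-differentiated cells the median was 25.9% and 5 to 95% of windows lay between 12.2 and 44.9%. BCL11A thus sat in the middle of the genome's range. Over windows at 80% or more the medians were 24.7% in BCL11A and 28.8% in the genome. Within the gene, the SD of the natural log of the share kept was 0.315, while the median counting error was 0.121. The interval of 11 windows lay wholly below the gene's median and that of 24 wholly above it.

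**Figure D3:**
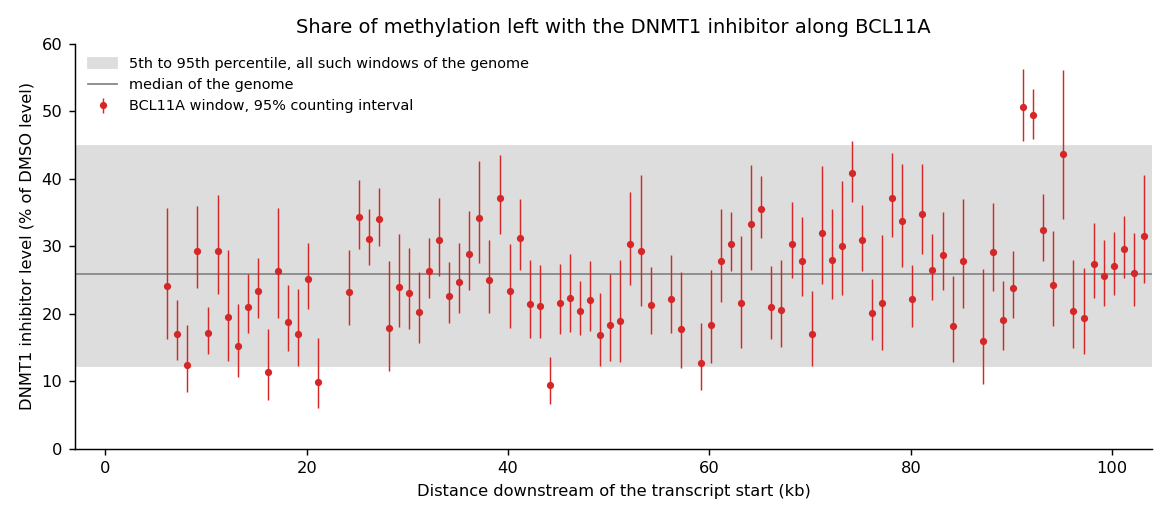
Share of methylation kept, as the DNMT1 inhibitor level in % of the DMSO level, for the 93 BCL11A windows at 50% or more in non-differentiated cells, against distance from the transcript start (kb). Points are windows with 95% counting intervals, the band holds 5 to 95% of such windows of the genome and the line is their median of 25.9%; windows 91 and 92 kb from the start lie above the band and windows near 44, 21 and 16 kb below it.

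Among the 93 windows at 50% or more in non-differentiated cells, loss was weakest in the coding part of exon 4, at the far end of the gene. This exon encodes most of the zinc fingers. The window of chr2:60462000-60462999 went from 95.4% with DMSO to 48.4% with the inhibitor and kept 50.7% (45.7 to 56.2), more than 98.1% of such windows of the genome. Non-differentiated and EED inhibitor cells were at 96.5% and 97.7% there. Its neighbour chr2:60461000-60461999, with 83 reference CpGs of which 47 were shared, went from 95.6% to 47.3% and kept 49.5% (46.0 to 53.3). Each of the 12 CpGs of the printed stretch of exon 4 was between 40 and 70.6% with the inhibitor and at 84.2% or more with DMSO. The window runs on past the exon into intron 3, and the coding CpG next to the stretch, at position 60462308, was at 34.3% (20.8 to 50.8).

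The next in order were chr2:60458000-60458999, with 4 CpGs in the last exon's untranslated part, which kept 43.7% (34.0 to 56.1), chr2:60479000-60479999 in intron 2 with 40.9% (36.6 to 45.7), and chr2:60514000-60514999 in intron 2 with 37.2% (31.8 to 43.5). Their intervals overlap in part with one another, and that of the first of them also overlaps those of both windows above, so this order is not fixed by counting. In points, the smallest losses among the 93 windows at 50% or more in non-differentiated cells were again at chr2:60462000-60462999 (-47.0), chr2:60461000-60461999 (-48.3) and chr2:60458000-60458999 (-50.7). Next came chr2:60524000-60524999 (-51.5) and chr2:60547000-60547999 (-54.0). The latter 2 began lower, at 67.8% and 71.2% with DMSO, and kept 24.0% and 24.1%, close to the gene's median.

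The lowest share kept among the 93 windows at 50% or more in non-differentiated cells was read in intron 2, 44 kb from the start. The window of chr2:60509000-60509999 went from 92.3% with DMSO to 8.74% with the DNMT1 inhibitor, a difference of -83.6 points (-87.3 to -78.4). It kept 9.46% (6.59 to 13.6), and 1.92% of such windows of the genome kept less. Its place as the lowest was not fixed: at 20 or more reads the lowest window was the one starting at position 60537000 (10.1%), and with windows shifted by 500 bp the one starting at 60531500 (8.92%). Non-differentiated and EED inhibitor cells were at 90.8% and 91.7%. In its middle lies a computed CpG island of 215 bp, chr2:60509342-60509556, where 7 shared CpGs went from 91.7% (85.5 to 95.4) to 4.00% (1.72 to 9.02) and kept 4.36% (1.84 to 10.3). The 9 shared CpGs of the printed stretch were each at 75% or more with DMSO and at 15.4% or less with the inhibitor, and 2 of them had no methylated read. Depth there was low, at 11 to 24 reads per CpG in these 2 libraries.

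The other windows of smallest share kept among those 93 were chr2:60532000-60532999 (9.91%, 5.98 to 16.4), chr2:60537000-60537999 (11.3%, 7.21 to 17.8), chr2:60545000-60545999 (12.4%, 8.46 to 18.3) and chr2:60494000-60494999 (12.7%, 8.70 to 18.6). The intervals of all 5, the first included, overlap, so their order is not fixed by counting. Of the 5 lowest windows 3 lay within 1 kb of a dip. The 10 windows within 1 kb of a dip kept a median of 19.5% and the other 83 a median of 25.1%. In points, the largest losses beside that of the 44 kb window were at chr2:60540000-60540999 (-83.0), chr2:60537000-60537999 (-81.6), chr2:60466000-60466999 (-77.4) and chr2:60543000-60543999 (-77.3), all of which began at 92% or more with DMSO. The intervals of these 5 overlap too. All these windows were picked as extremes of the share or the loss, so their values are a description.

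Windows with more CpGs tended to keep more, as a weak pattern. Over the 93 windows the share kept correlated with the number of reference CpGs at Pearson's r = 0.42 and Spearman's rho = 0.29, and at 0.27 and 0.25 without the 2 windows of most CpGs. With GC content r was 0.26 and rho 0.20, with distance from the start 0.34 and 0.30, and with the level in non-differentiated cells 0.31 and 0.31. These windows come from the same 2 libraries and their neighbours share reads, so no test was made. By the number of shared rather than reference CpGs, the same direction was seen genome-wide. Windows with 3 to 14 shared CpGs kept a median of 24.5% and those with 15 to 39 a median of 30.1%. Those with at least 40 kept a median of 41.8%. The median level of these classes in non-differentiated cells rose too, at 72.8%, 78.0% and 84.5%, and its part in the pattern was not tested. In BCL11A the 78 windows with 3 to 14 kept a median of 23.4% and the 15 with more a median of 30.9%. The window of lowest share kept, with 16 reference CpGs, was an exception to the pattern. That of highest share kept also had 16. Its 50.7% lay above the genome's 95th percentile of 47.5% for windows with 15 to 39 shared CpGs. Its neighbour chr2:60461000-60461999, with 47 shared CpGs, kept 49.5%. That lay inside the middle 50% of the genome's windows with at least 40 shared CpGs (33.0 to 51.1%).

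**Figure D4:**
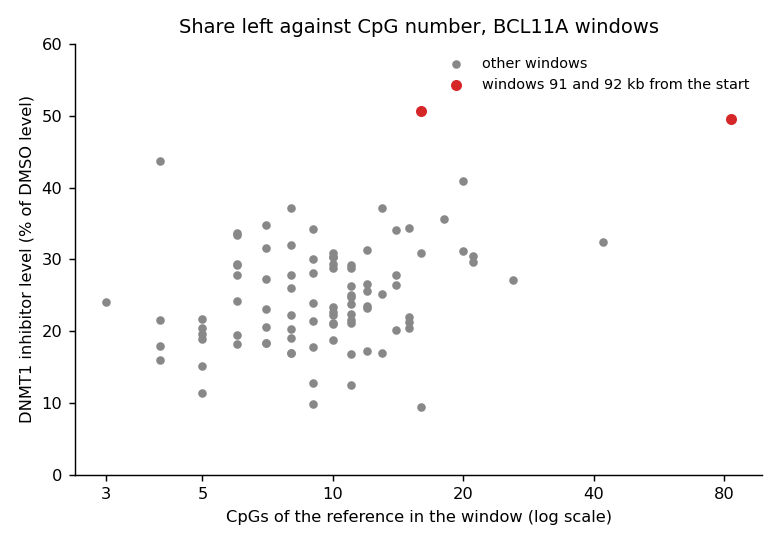
Share of methylation kept (DNMT1 inhibitor level in % of the DMSO level) against the number of reference CpGs per 1 kb window on a log scale, for 93 BCL11A windows. The windows 91 and 92 kb from the start, at exon 4, are in red with 16 and 83 CpGs; another window of 16 CpGs has the lowest share, 9.46%.

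By gene part, exon 4 stood above the others in methylation left. Of the 7 exons and introns 6 had enough shared CpGs, and 5 were called lower with the DNMT1 inhibitor, against 91.3% of all exons and introns tested, and none higher, against 0%. None was called with differentiation, against 0.007% of all exons and introns called lower and 0.00206% higher, nor with the EED inhibitor, against 0.0263% lower and 0.0161% higher. Exon 1 had 2 shared CpGs, both without a methylated read in 22 to 34 reads per library. Intron 1, most of which is in the promoter valley, went from 10.4% with DMSO to 1.98%, a difference of -8.45 points that is under the size needed for a call. Exon 2 went from 86.1% to 17.0% and kept 19.7% (14.6 to 26.6). Intron 2, with 780 CpGs by far the largest part, went from 84.8% to 21.6% and kept 25.4% (24.8 to 26.1). Exon 3 had 3 CpGs and kept 26.7% (18.9 to 37.8), and intron 3 kept 23.4% (20.8 to 26.4).

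Exon 4 went from 95.2% to 40.8% and kept 42.8% (40.6 to 45.3), more than 87.9% of 78380 exons at 50% or more in non-differentiated cells. Within it the coding part (chr2:60460407-60462424) kept 47.1% (44.5 to 49.8) and the untranslated part (chr2:60457194-60460406) 27.1% (23 to 32.0), and these intervals do not overlap. The coding part has 135 reference CpGs, of which 75 were shared, against 18 and 17 in the untranslated part. Most of them are in a computed CpG island, chr2:60460572-60461948, that was at 95.3%, 96.3%, 46.9% and 93.7% in the 4 libraries and so was methylated before treatment, unlike the promoter island. Among 2744 exons with at least 50 shared CpGs the median kept was 30.5%, with 5 to 95% of them between 19.3 and 57.6%, and 82.7% were below BCL11A exon 4.

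**Figure D5:**
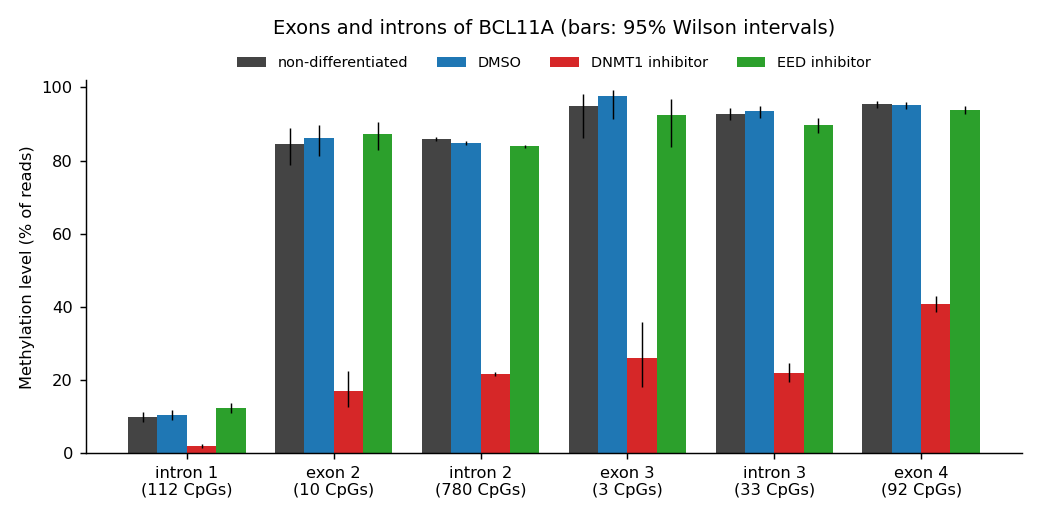
Methylation level (% of reads) of the 6 exons and introns of BCL11A with at least 3 shared CpGs, 1 bar per library, with 95% Wilson intervals. Intron 1 is near 10% in 3 libraries, all other parts are above 80% in 3 libraries, and with the DNMT1 inhibitor exon 4 is highest at 40.8%.

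With differentiation no window was called lower or higher in the DMSO library than in the non-differentiated library, against 0.000864% of all windows called lower and 0.000288% called higher. An unadjusted p under 0.05 by Fisher's exact test was seen in 5 of 105 windows, and the lowest adjusted p was 0.417. Of the windows, 50 were lower and 52 higher with DMSO, with a median difference of 0.00 points, against -0.952 over all windows. No CpG was called, against 0% of all CpGs in either direction, with 11 of 1156 at an unadjusted p under 0.05. The windows of largest rise were chr2:60525000-60525999 (from 63.7% to 77.2%), chr2:60532000-60532999 (76.3% to 85.6%) and chr2:60541000-60541999 (76.3% to 83.1%), with adjusted p from 0.566 to 0.861. Those of largest fall were chr2:60498000-60498999 at the 55 kb site (23.1% to 15.3%), chr2:60483000-60483999 (87.0% to 79.5%) and chr2:60458000-60458999 (96.8% to 90.1%), with adjusted p from 0.529 to 0.616. None of the 6 passed the test.

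Over the whole gene body the level went from 80.8% to 79.5% with differentiation, a difference of -1.26 points (-1.96 to -0.560) which had an adjusted p of 0.00167 (Fisher's exact test over gene bodies) and is far under the 25 points of a call. With every CpG given equal weight the difference was 0.00951 points, so its direction rests on how reads are weighted. It was -0.284 points at 20 or more reads and -2.68 over all CpGs listed in each library. An adjusted p under 0.01 was reached by 33.8% of 18218 gene bodies, whose median difference was -1.12 points.

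With the EED inhibitor no window of BCL11A was called either, against 0.0267% of all windows called lower and 0.00592% called higher. Here 11 windows had an unadjusted p under 0.05, and the lowest adjusted p was 0.0995. Of the windows, 68 were lower and 33 higher with the EED inhibitor. The median difference was -1.15 points over BCL11A windows and -0.709 over all windows. No CpG was called, against 0.00374% of all CpGs called lower and 0.000623% called higher. Of the 1156 CpGs 27 had an unadjusted p under 0.05, and the lowest adjusted p was 0.132. The window with the lowest adjusted p was chr2:60525000-60525999, 28 kb from the start in intron 2, at 57.0% against 77.2% with DMSO over 4 CpGs. Non-differentiated cells were at 63.7% there, so the DMSO library was the high one, and the rise with differentiation and the lower level with the EED inhibitor both rest on it. The same holds for chr2:60532000-60532999, at 76.3%, 85.6% and 74.5% in non-differentiated, DMSO and EED inhibitor cells. The others among the 3 largest differences in each direction were -10.6 points at chr2:60480000-60480999, 7.88 at chr2:60534000-60534999, 7.08 at chr2:60498000-60498999 and 6.63 at chr2:60458000-60458999, with adjusted p from 0.157 to 0.482. Falls that came next in size, -10.1 points at chr2:60494000-60494999 and -9.60 at chr2:60522000-60522999, had adjusted p of 0.282 and 0.104 (Fisher's exact test). Over the gene body the level was 78.6% against 79.5%, a difference of -0.961 points (-1.66 to -0.264) with 0.0295 as its adjusted p (Fisher's exact test). For this comparison 18.4% of gene bodies had an adjusted p under 0.01, the median difference was -0.353 points, and 31.7% of gene bodies had a lower value than BCL11A.

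The 3 enhancer sites were also read over 1000 bp on either side, with no test beyond the intervals of the differences. The 62 kb site, over 26 CpGs, was at 82.9%, 82.2%, 24.6% and 80.5%, with the libraries in the order used above. Its difference was -0.722 points (-4.86 to 3.49) with differentiation and -1.65 (-5.94 to 2.59) with the EED inhibitor, and both intervals hold 0. The 58 kb site, over 19 CpGs, was at 54.4%, 45.7%, 6.91% and 49.3%. Its differentiation difference of -8.70 points (-15.3 to -1.99) does not reach 0, but it was -0.527 with every CpG given equal weight. Its difference with the EED inhibitor was 3.58 points (-2.73 to 9.84), and -3.72 with equal weights. The 55 kb site, over 21 CpGs, was at 60.1%, 57.7%, 12.1% and 64.4%. Its differentiation difference was -2.42 points (-8.73 to 3.96), with -6.79 under equal weights. Its EED inhibitor difference of 6.69 points (0.453 to 12.8) does not reach 0. At 20 or more reads, which leaves 2 CpGs, both turned, to 6.67 and -0.556 points.

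As a gene body BCL11A was near the middle of the range in this cell line. Among 18218 gene bodies with at least 20 shared CpGs, 62.4% had a lower level with DMSO, 60.5% a lower level with the DNMT1 inhibitor and 51.2% a smaller share kept. The gene bodies nearest to it in their 4 levels, by Euclidean distance, were TBCEL-TECTA at 0.342 points, SUPT20H at 0.563, SKP1 at 0.713, LYRM1 at 0.775 and JAG1 at 0.784.

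Other genes of fetal globin repression, erythroid control and the complexes that BCL11A and DNMT1 act in were read beside it, as a list of 38. Of these, 36 had a gene body with enough CpGs, and 35 were called lower with the DNMT1 inhibitor, against 95.6% of all gene bodies, with a median difference of -59.3 points against -52.3 over all gene bodies. The 1 not called was KLF1, an erythroid activator of BCL11A, whose body was already at 0.715% with DMSO and was at 0.167% with the inhibitor. ZBTB7A, another repressor of gamma-globin, went from 85.2% to 23.4%. HIC2, a repressor of BCL11A, went from 88.5% to 24.6%. SOX6, a partner of BCL11A, went from 64.8% to 14.4%. The share kept ran from 14.4% in NFE2, an erythroid factor, to 38.4% in EHMT1, a histone methyltransferase.

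Promoters of the list could be tested for 30 genes. With the DNMT1 inhibitor 6 were called lower, against 43.7% of all promoters: SOX6, NR2C1, GATAD2A, HIC2, SUZ12 and UHRF1. A call needs a fall of at least 25 points, so a promoter under 25% with DMSO could not be called. All tested promoters of the list that were not called were under 25% with DMSO, the highest being MBD3 at 24.2%. Those called began at 29.5% (SUZ12) or more. The number called therefore does not show whether promoters of the list lost less than others. The HIC2 promoter went from 65.7% to 15.8% over 6 CpGs, and that of UHRF1, the factor that brings DNMT1 to new DNA, from 66.0% to 8.85%. With differentiation and with the EED inhibitor no gene body of the list was called, against 0% of all gene bodies, and no promoter, against 0% of all promoters for differentiation and 0.0221% called higher with the EED inhibitor.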

How the data were processed

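The data are bisulfite-converted whole genomes of HUDEP-2 cells, 4 libraries with 1 per group, with lambda DNA added and libraries made with the Accel-NGS Methyl-Seq kit, per the labels' protocols. The submitters' processing notes name Trim Galore 0.6.7, cutadapt 4.1, Bismark, Bowtie2 2.1.0, methylKit and hg38; their settings, and any removal of duplicate reads, are not given in the sources used here. Each deposited table gives, per CpG, the read count (coverage) and what percent of those reads carry C or T, per the file headers. Both strands are merged, and every deposited CpG has at least 10 reads, which leaves out many CpGs of GC-rich promoters.

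Methylated reads were recovered as coverage times percent, rounded; all values were whole within 0.0005 of the coverage. Mean coverage per library was 27.2 to 29.7 reads over all listed CpGs. Levels are summed methylated reads over summed reads at CpGs listed in all 4 libraries, with 95% Wilson intervals, so deeper CpGs weigh more. Windows of 1000 bp and gene parts with at least 3 shared CpGs, gene bodies with at least 20, promoters with at least 5, and single CpGs were compared with Fisher's exact test, two-sided (Python 3.11.15, scipy 1.17.1, numba 0.67.0) with Benjamini-Hochberg adjustment over the whole genome, per comparison and kind of unit. The interval of the share kept was computed on the log scale. The test code was run on simulated data first. Genes are GENCODE 44, and CpG islands were computed from hg38 (at least 200 bp, GC share of at least 0.5, observed to expected CpG of at least 0.6).

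The named regions were the promoter, every exon, intron and dip, and the 3 enhancer sites. They also were the 5 windows of highest and of lowest share kept and of largest and smallest loss. Share kept and loss were ranked among windows at 50% or more in non-differentiated cells. The 3 windows of largest change in each direction in the other comparisons were named too. Single CpGs within the named regions, and the CpG islands described, were picked after their values were seen. Repeat content along the gene was not analysed here, and the sequences at 2 of the 3 enhancer sites are not reported here. The interval, lists and rules were chosen with earlier results of these data known. Alternatives changed the coverage minimum and maximum, weighting, CpGs used, window size and start, thresholds and the definition of dips.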

Additional observations from a re-analysis of the deposited data

How the results depend on the processing

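No paired analysis was possible because each group has 1 library. Alternatives were run for the whole interval, the gene body, the promoter, the enhancer sites, the windows called, the lowest and highest share kept and the number of dips, except that the promoter had no CpG with 20 reads in all 4 libraries; exons and introns, single CpGs, levels of the dips, correlations and the list of 38 genes had none. Over the whole interval the DNMT1 inhibitor difference of -57.6 points was -64.0 at 20 or more reads (524 CpGs), -54.4 over all CpGs listed in each library and -55.3 with CpGs weighted equally. The gene body's -58.2 was -63.5, -56.0 and -56.6 in the same order. The differentiation difference over the interval, -1.40 points, was -0.407, -2.30 and -0.0402 under the same 3 settings, and that of the gene body, -1.26, was -0.284 and -2.68 and turned to 0.00951; the cause was not tested. The number of windows called lower with the DNMT1 inhibitor, 95 of 105, was 152 of 168 at 500 bp and 48 of 53 at 2 kb, by the number of windows available. With differentiation and with the EED inhibitor 0 windows were called under each of the 10 alternatives. The lowest and highest share kept were 15.1% and 44.3% in 2 kb windows, at the 44 kb place and at exon 4; the highest was at exon 4 under every alternative run (49.5% at 20 or more reads, 51.9% in shifted windows), while the lowest lay elsewhere under these 2, at position 60537000 (10.1%) and 60531500 (8.92%). Dips numbered 7 under 40%, 6 with at least 5 CpGs, 10 when chosen in DMSO, and 3 at 20 or more reads, where fewer CpGs are left. The DNMT1 inhibitor difference depended on the width at 2 of the 3 enhancer sites: within 500 bp in place of 1000 bp it went from -45.6 to -18.9 points at the 55 kb site and from -38.8 to -14.3 at the 58 kb site, and from -57.6 to -60.4 at the 62 kb site. The narrower spans at 55 and 58 kb overlap the dips there, which were at 1.84% and 4.09% with DMSO and had little to lose in points. The share kept was not computed for the narrower spans. Depth of 10 to 63 reads per CpG limits single CpGs, and the promoter rests on few of its CpGs.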
